A study of Mus musculus with 6 samples.

Results

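Lung endothelial cells given tumour vesicles after reserpine were set against cells given vehicle, across all genes. The comparison used 4 of the 6 libraries of the study, 2 a group, which were chosen by the treatment that the sample titles name and by no measured value. All cells were cultured lung endothelium of Ch25h-null C57BL6 mice aged 3 weeks and labelled female, so the controls lacked Ch25h too. Treated cells, as they are called below, had 10 µM reserpine for 8 h and then extracellular vesicles of MC38, a mouse colorectal tumour line, at 20 µg per ml for 12 h. The other 2 libraries came from cells given the vesicles without reserpine (TEV), and their values stand beside some of the results. Where no TEV value is given, a change from vehicle may have been as large or larger with TEV alone. The vehicle is called PBS in the series text. That text can also be read as giving reserpine to all cells, and the sample labels, which name it in 1 group, were followed. Reserpine without vesicles was not analysed here, so what the vesicles did and what reserpine did cannot be told apart in this comparison. The cells grew in medium with 15% serum, endothelial growth factor and heparin. The labels do not say whether the libraries of a group came from separate cultures or animals, so each p-value measures the spread between these libraries, which may be technical.

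Tumour cells shed membrane vesicles that carry protein, lipid and RNA, and endothelial cells take them up by endocytosis or by fusion. Ch25h encodes cholesterol 25-hydroxylase, an interferon-induced enzyme whose product, 25-hydroxycholesterol, restrains sterol synthesis and can block membrane fusion. Reserpine, an old antihypertensive drug, blocks the vesicular monoamine transporters that load noradrenaline, dopamine and serotonin into storage vesicles. Endothelium lines the lung's capillaries, holds a barrier through junction proteins, controls leukocyte entry, tone and clotting, and divides little unless it is stimulated.

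The 4 libraries compared held 22270657 to 41528816 estimated counts, where 3 counts came to between 0.0697 and 0.134 CPM (counts scaled to the same library total with TMM factors). Ch25h stood at 0.348 and 0.313 CPM with vehicle and at 1.07 and 0.919 CPM in treated cells. Which part of the gene is deleted was not stated in the labels, and so its reads are no check of the genotype. Its log2 change of 1.57 was called (edgeR adjusted p = 0.0334), a call lost on leaving out replicate 1 (edgeR adjusted p = 0.138) or 2 (0.148) of the vehicle group, replicate 1 (0.125) or 2 (0.092) of the treated group, or replicate 2 of TEV (0.0504), and also with DESeq2 (adjusted p = 0.0837) and with a replicate block (edgeR adjusted p = 0.0646). The 4 Y-linked genes Ddx3y, Eif2s3y, Kdm5d and Uty had 254 to 2967 counts in every one of the 6 libraries (11.3 to 42.9 CPM), against the label female. Endothelial markers were high throughout, and their summed level was 7866 and 7845 CPM with vehicle and 15682 and 15074 CPM in treated cells. Chi-square between the replicates averaged 19.5 a gene with vehicle and 20.6 in treated cells, so none was a second copy of another.

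Across the transcriptome, cell division genes, interferon-stimulated genes and many endothelial genes were higher in treated cells, while many matrix, mesenchymal and amino acid response genes were lower. Of 15035 genes tested by edgeR's quasi-likelihood test with Benjamini-Hochberg adjustment, 2879 (19.1%) were called higher than with vehicle and 2994 (19.9%) lower at an adjusted p under 0.05. Both percentages are the background for the gene lists below. A change of at least 2-fold was called higher for 1043 genes (6.94% of those tested) and lower for 1600 (10.6%), and one of at least 16-fold higher for 58 and lower for 406. Both treated libraries lay above both vehicle libraries for 35.4% of genes tested and under them for 38.1%. The median log2 change of all genes was -0.02. Without vehicle replicate 1 the counts fell to 1800 higher and 1772 lower genes, and without replicate 1 of the treated group 1976 were lower. On simulated counts for these 4 libraries and the TEV pair, the test recovered 52.6% of 97 changes of 2-fold and 83.7% of 98 of 4-fold. Far fewer genes were changed there than were called here, so these rates need not hold for this comparison.

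**Figure D1:**
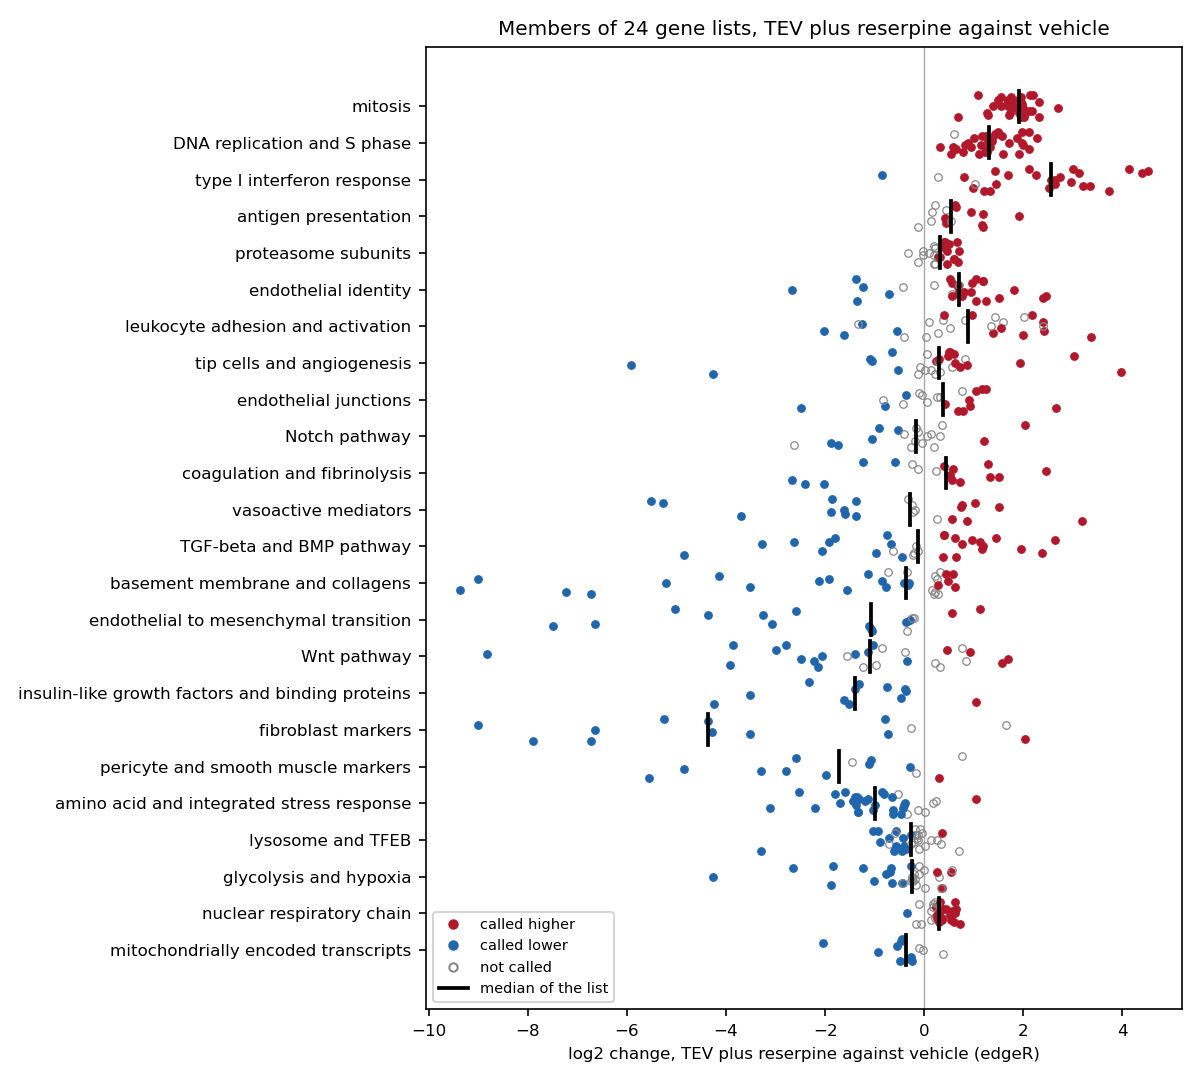
Log2 change (x axis, edgeR, TEV plus reserpine against vehicle) of the tested members of 24 gene lists (rows). Filled red points were called higher, filled blue points lower, and open points were not called. The black bar is the median of all tested members of the list. Members with under 4 counts over a group, which have a bound or a counting interval, enter the median but are not drawn as points. Mitosis and S phase genes lie to the right of 0, with medians of 1.91 and 1.30, and fibroblast markers lie mostly to the left, with a median of -4.37.

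The largest increases among called genes of at least 5 CPM were of several kinds. Ppl, which encodes the cytolinker periplakin, stood at 0.929 and 0.87 CPM with vehicle and at 29.3 and 29.3 CPM in treated cells, a log2 change of 5.02 (SE 0.239, edgeR adjusted p = 3.88e-05). Tnfsf18, the ligand of the T cell receptor GITR, stood at 6.94 and 8.5 CPM with vehicle and 115 and 129 CPM in treated cells (log2 change 3.99). Both treated libraries lay well above both vehicle libraries for each of these genes, and the TEV libraries lay between, at 8.97 and 13 CPM for Ppl and 24.4 and 46.6 CPM for Tnfsf18. Prom1, the pentaspan membrane glycoprotein prominin 1, changed by 4.42, and Sp5, a transcription factor known as a Wnt target, by 3.64 on the log2 scale. For Sp5 the TEV libraries were the highest, at 47.7 and 46.4 CPM against 27.4 and 24.6 CPM in treated cells.

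The deepest decreases left few or no reads of a gene. Mgp, the matrix Gla protein gene, stood at 119 and 93.6 CPM with vehicle and 0.179 and 0.144 CPM in treated cells (log2 change -9.37, SE 0.252, edgeR adjusted p = 4.28e-06). Il1rl1, the receptor of the alarmin IL-33, went from 261 and 411 CPM to 0.357 and 0.632 CPM (log2 change -9.32). Every treated library was far under every vehicle library for both, and so were the TEV libraries, at 0.0555 and 0.102 CPM and 0.666 and 1.03 CPM. No counts at all were left in treated cells for Tspan11, a tetraspanin gene, which was at least 466-fold lower with the empty group set at 3 counts, or for Xdh, the gene of xanthine dehydrogenase, which was at least 360.1-fold lower. The growth factor gene Fgf10 was 855-fold lower (95% counting interval 236 to 7061), and the granzyme gene Gzme was 1542-fold lower (95% counting interval 276 to 60928). These floors and intervals cover counting error only.

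The most abundant genes that changed by at least 2-fold included Apln, Fkbp1a and Tinagl1 among those higher and Spp1, Grem1 and Apobec3 among those lower. Apln, the apelin peptide of sprouting endothelium, rose from 174 and 188 CPM to 1468 and 1476 CPM. Fkbp1a, the immunophilin FKBP12, rose from 549 and 544 CPM to 1182 and 1167 CPM, and Tinagl1, a secreted matricellular protein, from 416 and 369 CPM to 1237 and 1057 CPM. Replicates of a group lay close together for each of these genes, and the groups did not overlap. Spp1, the secreted glycoprotein osteopontin, fell from 5129 and 5391 CPM with vehicle to 38.5 and 38.3 CPM (log2 change -7.10, SE 0.112, edgeR adjusted p = 9.93e-07). Grem1, an antagonist of BMP ligands, fell from 2169 and 2208 CPM to 12.4 and 11.7 CPM, and Apobec3, a cytidine deaminase that restricts retroviruses, fell from 1399 and 1437 CPM to 123 and 125 CPM. With TEV alone Spp1 stood at 156 and 135 CPM, Grem1 at 19 and 19.8 CPM and Apobec3 at 110.4 and 119.7 CPM.

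The cell division programme was higher as a block. Of 35 genes of mitosis tested, 35 were called higher, 34 of them by at least 2-fold, and of 36 genes of DNA replication and S phase 35 were called higher, 27 of them by at least 2-fold. Medians were 1.91 for mitosis and 1.30 for S phase on the log2 scale. The range within mitosis ran from 0.68 to 2.70. Nusap1, which bundles spindle microtubules, stood at 6.5 and 5.68 CPM with vehicle and at 37.8 and 41.4 CPM in treated cells (log2 change 2.70, SE 0.174, edgeR adjusted p = 0.000102). Ube2c, the ubiquitin-conjugating enzyme of the anaphase-promoting complex, rose from 14.6 and 14.1 CPM to 72.7 and 71.2 CPM. Cdc20, an activator of the same complex, rose from 20.3 and 12.5 CPM to 92 and 72.4 CPM, and Ccnb2, a mitotic cyclin, from 10.4 and 9.68 CPM to 46.1 and 45.6 CPM. Treated libraries lay above vehicle libraries without overlap for each.

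In S phase, Rrm2, the regulatory subunit of ribonucleotide reductase, stood at 42.3 and 37.8 CPM with vehicle and 169 and 181 CPM in treated cells (log2 change 2.13, SE 0.113, edgeR adjusted p = 5.47e-05). Ccne2, an E-type cyclin of the entry into S phase, rose from 8.8 and 5.68 CPM to 34.8 and 36.2 CPM. Lig1, the ligase that joins Okazaki fragments, rose from 19.2 and 15 CPM to 69.9 and 64.4 CPM. Rfc3, a clamp loader subunit, was the 1 member not called, at 10.1 and 14.8 CPM and 20.8 and 17.1 CPM (edgeR adjusted p = 0.0526). Against TEV alone, where 15.7% of all genes were called higher and 16.0% lower, 23 of 35 mitosis genes and 5 of 36 S phase genes were higher in treated cells. Nusap1 stood at 16.2 and 21.5 CPM with TEV (treated against TEV 1.07, edgeR adjusted p = 0.0048). Ccnd1, the G1 cyclin D1, stood at 864 and 751 CPM with vehicle and 1666 and 1655 CPM in treated cells (log2 change 1.04), and its call ended without vehicle replicate 2 (edgeR adjusted p = 0.0558).

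Promoters of the 2 lists are shown because their genes moved together and because each class has a well-known promoter element, E2F sites for S phase genes and the CHR element for mitosis genes. RefSeq sequences (GRCm38.p6) of 250 bases before to 50 after each gene's start matched 29 of the 36 S phase genes and 28 of the 35 mitosis genes. The E2F search used TTTGGCGC, TTTCCCGC, TTTGCCGC or TTTCGCGC on both strands, whose matches can overlap one another. It matched 13 of the 29 S phase promoters (44.8%) and 1 of the 28 mitosis promoters (3.57%), beside 4.33% of the promoters of 10776 genes tested and 2.6% of all 27025 promoters. The CHR search used TTTGAA on both strands. It matched 20 of the 28 mitosis promoters (71.4%) and 4 of the 29 S phase promoters (13.8%), beside 14.6% of the promoters of genes tested and 20.2% of all. A match is a description of the letters in this window. The stretches below, 5′ to 3′ on the gene's strand, hold the match in capitals.
Mcm5, chr8:75109325-75109402, plus strand: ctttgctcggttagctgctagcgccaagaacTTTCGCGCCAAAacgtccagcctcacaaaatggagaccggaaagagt
Cdc6, chr11:98907978-98908055, plus strand: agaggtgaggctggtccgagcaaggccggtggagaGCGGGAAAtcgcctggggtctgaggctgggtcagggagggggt
Ube2c, chr2:164769865-164769928, plus strand: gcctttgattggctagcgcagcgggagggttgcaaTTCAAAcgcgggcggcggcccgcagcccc
Cdc20, chr4:118437344-118437396, minus strand: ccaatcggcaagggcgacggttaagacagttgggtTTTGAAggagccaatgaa
Ccnb2, chr9:70421681-70421756, minus strand: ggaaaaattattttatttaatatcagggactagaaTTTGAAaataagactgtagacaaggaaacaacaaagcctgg
The capitals mark E2F matches in Mcm5, where 2 matches overlap, and Cdc6, and CHR matches in the other three. Mcm5, a subunit of the replicative helicase, rose from 1.21 and 1.32 CPM to 5.76 and 5.28 CPM, and Cdc6, which loads that helicase, from 6.9 and 8.43 CPM to 30.7 and 29.7 CPM. Reads of Cdc6 may be shared with a near-identical pseudogene.

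Genes that hold back division were called in part. Of 24 cyclin-dependent kinase inhibitors and p53 targets, 9 were called higher, with a median log2 change of 0.13. Gadd45b, a stress-induced gene of cell cycle arrest, rose from 6.27 and 7.66 CPM to 23.7 and 21 CPM. Cdkn2c, which encodes the inhibitor p18, rose from 4.18 and 5.29 CPM to 11.3 and 11.6 CPM. Trp53 itself rose from 136 and 168 CPM to 243 and 234 CPM, and Pmaip1, the death-promoting p53 target NOXA, from 57.5 and 58.8 CPM to 97.1 and 102 CPM. Ccng1, another p53 target, was not called, at 739 and 707 CPM and 640.4 and 700.0 CPM.

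Interferon-stimulated genes formed the second block of increases. Of 27 genes of the type I interferon response tested, 24 were called higher, 22 by at least 2-fold, and 1 lower, with a median log2 change of 2.56. Isg15, a ubiquitin-like modifier, stood at 0.79 and 1.01 CPM with vehicle and 13.6 and 17.7 CPM in treated cells (log2 change 4.14, SE 0.577, edgeR adjusted p = 0.00204). Usp18, the protease that removes it and restrains the interferon receptor, stood at 1.18 and 0.87 CPM and 15.1 and 29.1 CPM (log2 change 4.41, edgeR adjusted p = 0.00194). Ifit1, which binds foreign RNA, stood at 1.14 and 1.39 CPM and 11 and 22.3 CPM (log2 change 3.73). All 3 were low in both vehicle libraries and higher in both treated libraries, and replicate 2 was the higher treated library for each. Oas1a, an enzyme that activates RNase L, rose from 0.232 and 0.279 CPM to 5.14 and 6.52 CPM, but its reads can be shared with the near-identical Oas1g and its level is uncertain. Rtp4 had no counts with vehicle and stood at 2.32 and 1.61 CPM in treated cells, at least 45.2-fold higher against 3 counts over the group. Ifit2 was the member called lower, at 27.8 and 24.1 CPM with vehicle and 11.9 and 16.6 CPM in treated cells, and its call ended without vehicle replicate 1 (edgeR adjusted p = 0.0545).

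Stat2 and Irf9, transcription factors of interferon signalling, were called higher. Stat2 stood at 17.5 and 16.8 CPM with vehicle and 39.5 and 53.6 CPM in treated cells (log2 change 1.44, edgeR adjusted p = 0.00447), and Irf9 changed by 1.22 on the log2 scale. Of 17 genes of interferon receptors and their signalling, 4 were called higher and 3 lower, beside 19.1% of all genes called higher. The receptor chain gene Ifnar1 was not called, at 139 and 145 CPM with vehicle and 131 and 138 CPM in treated cells (edgeR adjusted p = 0.549), beside 60.8 and 68.6 CPM with TEV alone. Jak2, a kinase of several cytokine receptors, fell by 0.89 and Stat3, the factor downstream of interleukin 6, by 0.50 on the log2 scale. Against TEV alone, 10 of the 27 interferon response genes were called higher. The TEV libraries differed between themselves in this list, with Isg15 at 17.7 and 5.74 CPM and Usp18 at 18.4 and 6.67 CPM.

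Promoters of this list are shown for the same reason, with the interferon-stimulated response element, which factors of interferon signalling bind. The search used GAAA, any 2 bases and GAAA again, on both strands. RefSeq promoters matched 20 of the 27 genes, and 10 of the 20 held the element (50%), beside 3.66% of the promoters of genes tested and 3.99% of all. The capitals mark the matches in 3 promoters, each 5′ to 3′ on the gene's strand.
Oas1a, chr5:120907526-120907574, minus strand: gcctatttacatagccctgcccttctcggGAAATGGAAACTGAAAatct
Isg15, chr4:156200840-156200919, minus strand: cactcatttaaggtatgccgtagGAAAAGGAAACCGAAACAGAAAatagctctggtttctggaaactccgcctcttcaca
Ifit1, chr19:34640769-34640848, plus strand: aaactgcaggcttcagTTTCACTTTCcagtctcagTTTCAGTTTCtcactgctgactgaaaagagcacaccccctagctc
In Oas1a and Isg15 matches overlap one another, and in Ifit1 a pair of matches on the other strand stands apart.

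Class I antigen presentation was higher in part. Of 15 genes tested, 9 were called higher, with a median of 0.54 on the log2 scale, and the count was 5 without vehicle replicate 1 or without replicate 2 of the treated group. Psmb8, an immunoproteasome subunit, rose from 1.95 and 2.92 CPM to 7.91 and 10.3 CPM, and Tap1, which pumps peptides into the endoplasmic reticulum, from 21.3 and 21.1 CPM to 45.8 and 50.2 CPM. H2-K1, a class I heavy chain, rose from 44.4 and 64.9 CPM to 136 and 115 CPM, and H2-D1 from 160.4 and 191 CPM to 349.9 and 326 CPM. Class I genes share sequence, so their reads may be split. Treated libraries were above vehicle libraries for each of the 4 genes. Of 27 proteasome subunits, 15 were called higher (7 without vehicle replicate 1), with a median of 0.33. Psme1, a subunit of the interferon-induced activator PA28, rose from 32.4 and 29.7 CPM to 48.7 and 49.8 CPM, and Psmb2, a core subunit, from 73 and 84.6 CPM to 129 and 123 CPM.

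Most endothelial identity genes were higher in treated cells. Of 28 tested, 19 were called higher and 5 lower, with a median log2 change of 0.70. Pecam1, the adhesion molecule CD31 of endothelial junctions, stood at 735 and 747 CPM with vehicle and 1748 and 1769.9 CPM in treated cells (log2 change 1.25, SE 0.0652, edgeR adjusted p = 5.36e-05). Emcn, the sialomucin endomucin, stood at 356 and 365 CPM and 1852 and 1925 CPM (log2 change 2.39, SE 0.0731, edgeR adjusted p = 6.59e-06). Procr, the endothelial protein C receptor, stood at 157 and 170.4 CPM and 926 and 876 CPM (log2 change 2.46). The replicates of a group lay close together for Pecam1 and Emcn, and no group overlapped the other. Eng, a co-receptor of BMP9 signalling, Plvap, the diaphragm protein of fenestrae and caveolae, and Nos3, endothelial nitric oxide synthase, changed by 1.19, 1.05 and 1.52. For Emcn and Eng the TEV libraries were higher still, at 2680.1 and 2484 CPM and 1936 and 1882 CPM (treated against TEV -0.45 and -0.77, edgeR adjusted p = 0.0052 and 0.00188).

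The identity genes called lower included Vwf, the von Willebrand factor stored in Weibel-Palade bodies, which fell from 51.3 and 43.4 CPM to 8.44 and 6.63 CPM. Klf4, a factor induced by shear stress, fell from 84 and 74.8 CPM to 31.7 and 29.9 CPM, and Sox17, a factor of arterial endothelium, from 9.03 and 8.53 CPM to 4.29 and 2.61 CPM. Kdr, the main VEGF receptor, was not called, at 343 and 306 CPM with vehicle and 463 and 495 CPM in treated cells (edgeR adjusted p = 0.069), and it stood at 65.3 and 105 CPM with TEV alone. Sox18, a factor of vascular and lymphatic development, was not called either, at 148 and 149 CPM and 265 and 219 CPM (edgeR adjusted p = 0.209). Against TEV alone, 12 of the 28 genes were called higher and 6 lower. The summed level of fibroblast markers, given below, moved opposite to that of endothelial markers, and its part in these results was not tested.

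Genes of tip cells and sprouting moved both ways. Of 28 tested, 12 were called higher and 6 lower, with a median of 0.29 on the log2 scale. The higher count was 5 without vehicle replicate 1, and 7 without vehicle replicate 2 or without replicate 1 of the treated group. Esm1, the secreted proteoglycan endocan of tip cells, stood at 28.1 and 28 CPM with vehicle and 434 and 446 CPM in treated cells (log2 change 3.97, SE 0.101, edgeR adjusted p = 3.55e-06). Angpt2, the angiopoietin that loosens vessels, stood at 298 and 333 CPM and 1211 and 1197 CPM (log2 change 1.93). The TEV libraries were higher still, at 502 and 581 CPM for Esm1 and 2309 and 2109 CPM for Angpt2. Apln was the highest of the 3 groups in treated cells, with 437 and 759.5 CPM in the TEV libraries (treated against TEV 1.30, edgeR adjusted p = 0.00849). Its receptor gene Aplnr moved the other way, from 143 and 133 CPM with vehicle to 2.01 and 2.47 CPM. Vegfa fell from 151 and 161 CPM to 8.8 and 7.55 CPM, a log2 change of -4.26 (SE 0.142, edgeR adjusted p = 9.09e-06). Both treated libraries were under both vehicle libraries for Aplnr and Vegfa, and over them for the 3 raised genes. Plxnd1, a semaphorin receptor, was not called, at 1294 and 1312 CPM and 1653 and 1529.9 CPM, beside 384 and 572 CPM with TEV alone.

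**Figure D2:**
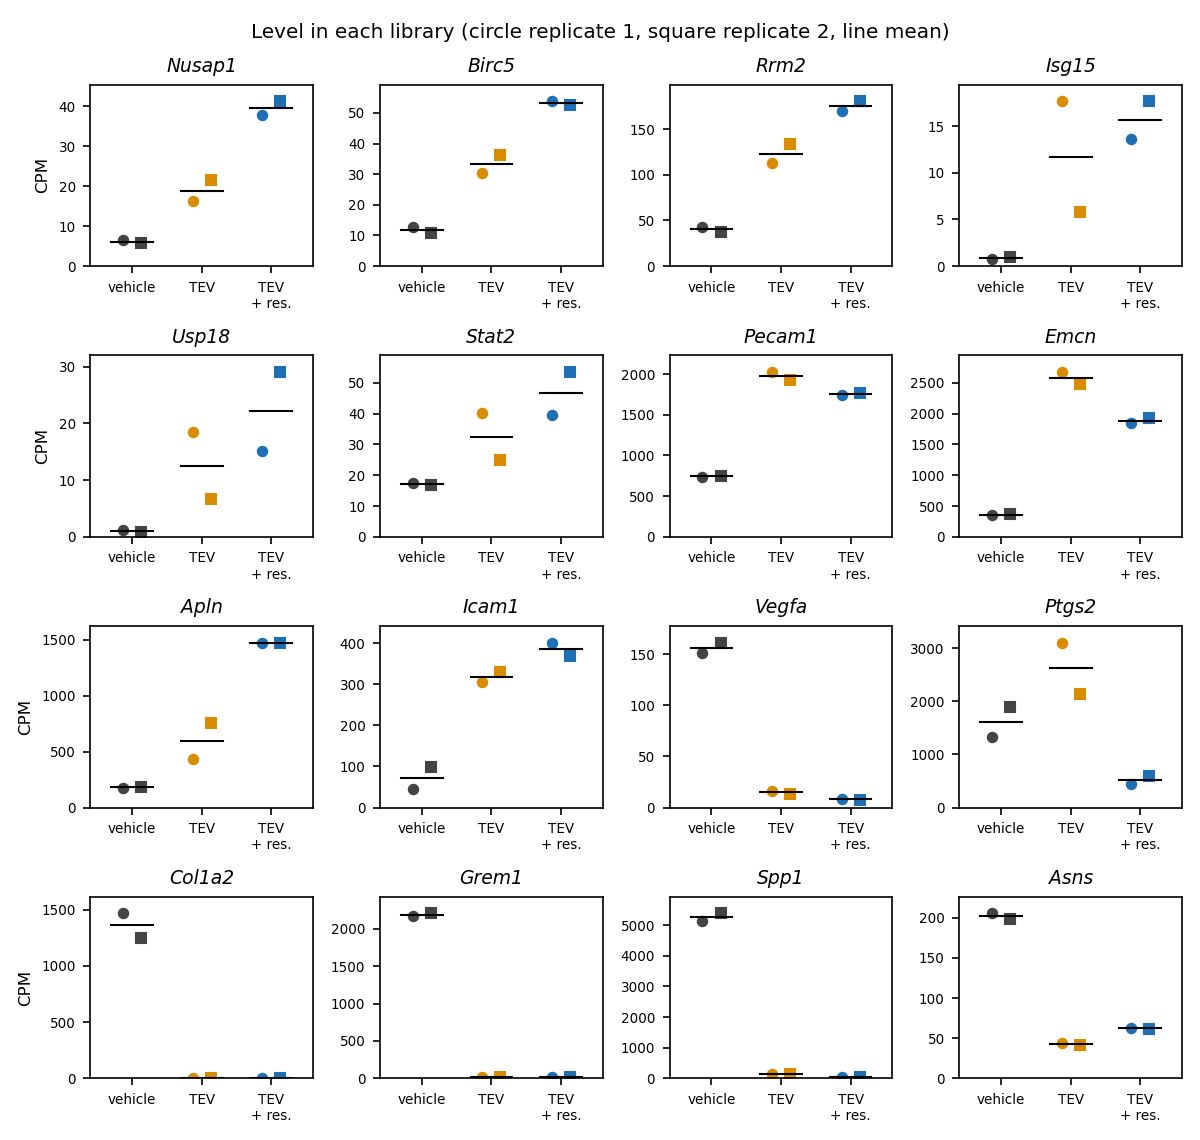
CPM (y axis, linear, from 0) of 16 genes in each library of the 3 groups (x axis); the circle is replicate 1, the square replicate 2 and the line their mean. Nusap1, Birc5, Rrm2 and Apln were highest with TEV plus reserpine, Pecam1 and Emcn were highest with TEV alone, and Col1a2, Grem1 and Spp1 were high in the vehicle libraries.

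Within the Notch pathway, 2 of 20 genes were called higher and 6 lower than with vehicle, whereas 16 were called higher and 2 lower than with TEV alone. Nrarp, a feedback target of Notch, rose from 12.3 and 9.68 CPM to 46.4 and 44.1 CPM (log2 change 2.04, SE 0.193, edgeR adjusted p = 0.000399). Jag1, a Notch ligand that can oppose DLL4, rose from 182 and 204 CPM to 435 and 461 CPM. Notch2, a receptor, fell from 167 and 163 CPM to 43.1 and 46.3 CPM, and Rbpj, the DNA-binding partner of all Notch receptors, from 287 and 285 CPM to 84.7 and 87.8 CPM. Notch1 was not called, at 214 and 203 CPM and 232 and 229 CPM, and Notch4, the receptor most restricted to endothelium, stood at 287 and 252 CPM and 359 and 318 CPM (edgeR adjusted p = 0.0523). For Notch1 the TEV libraries, at 118 and 155 CPM, were the lowest of the 3 groups.

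Markers of lung capillary cells moved both ways, with 9 of 20 called lower, 4 higher and a median of -0.39. Tbx3, a T-box factor, fell from 47.6 and 60.1 CPM to 1.21 and 1.98 CPM, and Foxf1, a factor required for lung capillaries, from 33 and 44.8 CPM to 3.08 and 2.38 CPM. Ednrb, the endothelin receptor of the aerocyte type of capillary cell, fell from 35.4 and 31.9 CPM to 8.75 and 9.7 CPM. Treated and vehicle libraries did not overlap for these factors and receptor. Kit, a marker of the general type of capillary cell, was not called, at 76.8 and 83.3 CPM and 71.3 and 69.2 CPM, beside 9.36 and 12.6 CPM with TEV alone. In bulk RNA, fewer cells of a type and less RNA per cell cannot be told apart. Cav1, the coat protein of caveolae, rose from 309 and 302 CPM to 1183 and 1121 CPM, and Cav2 from 68.6 and 60.4 CPM to 133 and 145 CPM. TEV libraries stood between for Cav1, at 714 and 895 CPM.

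Junction genes were higher for 9 of 20 and lower for 3, with a median of 0.37. Esam, an endothelial adhesion molecule of tight junctions, rose from 145 and 143 CPM to 311 and 288 CPM, and F11r, which encodes JAM-A, from 161 and 181 CPM to 329 and 307 CPM. Marveld2, which encodes tricellulin, was low throughout and changed by 2.67 on the log2 scale, from 0.488 and 0.244 CPM to 2.23 and 2.55 CPM. In the other direction, Jam2 fell from 38.1 and 30.7 CPM to 5.67 and 6.49 CPM and Gja1, the gap junction protein connexin 43, from 463 and 483 CPM to 268 and 278 CPM. Ctnnb1, beta-catenin, was not called, at 1087 and 1019 CPM and 1075 and 1109 CPM.

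Genes of leukocyte adhesion and endothelial activation were called in both directions, and the vehicle libraries differed from each other in several of them. Of 26 adhesion and activation genes, 9 were called higher and 4 lower, with a median of 0.90. The higher count was 18 without vehicle replicate 2 and 5 without either treated replicate, which also left 2 called lower. Sele, which encodes E-selectin, stood at 4.99 and 12.6 CPM with vehicle and 86.9 and 91.7 CPM in treated cells (log2 change 3.38, SE 0.383, edgeR adjusted p = 0.000868). Selp, which encodes P-selectin, stood at 111 and 185 CPM and 836 and 728 CPM (log2 change 2.40, SE 0.251). Icam1, the ligand of leukocyte integrins, stood at 45.5 and 99.3 CPM and 402 and 369 CPM (log2 change 2.42, SE 0.326). Vehicle replicate 2 was the higher vehicle library for each, and both treated libraries stood above it. Cx3cl1, the membrane-bound chemokine fractalkine, rose from 17.9 and 27.9 CPM to 107 and 98.8 CPM.

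The same vehicle library held more reads of several cytokine genes. Ccl2, the monocyte chemokine, stood at 77.6 and 411 CPM with vehicle and 620.0 and 616 CPM in treated cells (edgeR adjusted p = 0.139). Nfkbia, the NF-kB inhibitor that NF-kB induces, stood at 35.7 and 86.2 CPM and 111 and 104 CPM (edgeR adjusted p = 0.107). Cxcl1 and Csf3, named here after their values were seen, stood at 0.859 and 52.2 CPM and 0.999 and 19.5 CPM with vehicle, and at 38.5 and 36.4 CPM and 56.6 and 49.4 CPM in treated cells. In each of these 4 genes vehicle replicate 1 was the lowest library, and the 2 treated libraries lay close together. Vcam1 went the other way, at 298 and 552 CPM with vehicle and 173 and 184 CPM in treated cells, and its call ended without replicate 1 (edgeR adjusted p = 0.0899) or 2 (0.0705) of the treated group.

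Vasoactive genes moved both ways. Of 22 tested, 7 were called higher and 10 lower, with a median of -0.29. Edn1, the vasoconstrictor endothelin 1, stood at 26.6 and 27.6 CPM with vehicle and 247 and 251 CPM in treated cells (log2 change 3.20, SE 0.158, edgeR adjusted p = 4.47e-05). Ddah1, which degrades an inhibitor of nitric oxide synthase, rose from 131 and 137 CPM to 273 and 270.5 CPM alongside Nos3, which went from 123 and 118 CPM to 361 and 327 CPM. Several enzymes of prostanoid synthesis were lower. Pla2g4a, the phospholipase that frees arachidonic acid, fell from 198 and 180.5 CPM to 43 and 59.1 CPM. Ptgs1, cyclooxygenase 1, fell from 316 and 308 CPM to 6.92 and 6.66 CPM, and Ptgs2, cyclooxygenase 2, from 1325 and 1898 CPM to 449 and 594 CPM. Ptges, prostaglandin E synthase, fell from 129 and 300.4 CPM to 4.51 and 6.43 CPM (log2 change -5.27, SE 0.454, edgeR adjusted p = 0.000273). No treated library reached a vehicle library in any of these 4 genes. Ptgs2 was highest in the TEV libraries, at 3109 and 2132 CPM, and Ptgis, prostacyclin synthase, was not called, at 75.8 and 79.6 CPM and 101 and 84.1 CPM. Bdkrb2, the bradykinin B2 receptor, fell by 3.70 on the log2 scale.

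Coagulation and fibrinolysis genes were higher for 9 of 18 and lower for 5, with a median of 0.43. Tfpi2, a Kunitz-type protease inhibitor, rose from 49.4 and 59.9 CPM to 152 and 159.5 CPM, beside 693 and 582 CPM with TEV alone. F8, coagulation factor VIII, rose from 7.25 and 7.17 CPM to 16.7 and 19.5 CPM. F3, tissue factor, which starts clotting, fell from 61.3 and 64.2 CPM to 15.4 and 15.6 CPM, and Serpinb2, the type 2 inhibitor of plasminogen activators, from 11.6 and 25 CPM to 3.53 and 3.36 CPM. The groups did not overlap for any of these genes. Plat, tissue plasminogen activator, was not called, at 173 and 183 CPM and 153 and 148 CPM, although TEV alone had 2245 and 1568 CPM. Plau, the urokinase gene, was not called, at 1019 and 1084 CPM and 1467 and 1451 CPM, beside 239 and 393 CPM with TEV alone.

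Many matrix and mesenchymal genes were lower. Of 30 basement membrane and collagen genes, 16 were called lower and 5 higher, with a median of -0.37. The higher count was 3 without replicate 1 of the treated group, and 9 without either TEV library. Col1a2, a chain of collagen I, stood at 1467 and 1249.7 CPM with vehicle and 2.68 and 2.58 CPM in treated cells (log2 change -9.01, SE 0.229, edgeR adjusted p = 3.55e-06). Col6a1, a chain of the microfibrillar collagen VI, fell from 175 and 159 CPM to 4.73 and 4.31 CPM, and Col5a2, a fibrillar collagen chain, from 1487 and 1416 CPM to 675 and 652 CPM. Both treated libraries were under both vehicle libraries for each collagen named. Fbln2, an elastic fibre protein, fell from 3986 and 3555 CPM to 769 and 697 CPM. Bgn, a small leucine-rich proteoglycan, fell from 3168 and 2846 CPM to 537 and 469 CPM, and Timp2, an inhibitor of metalloproteinases, from 2075 and 1839 CPM to 522 and 481 CPM. Lamc1, a laminin chain of the endothelial basement membrane, rose from 498 and 508 CPM to 721 and 781 CPM. Hspg2, which encodes perlecan, was not called, at 2363 and 2221 CPM and 2969 and 2389 CPM. Fn1, fibronectin, the most abundant gene of the list, was called higher, from 14792 and 14035 CPM to 18265 and 16609 CPM. The summed level of the basement membrane and collagen list did not fall. It was 43823 and 41595 CPM with vehicle and 44656 and 41694 CPM in treated cells.

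Most fibroblast and pericyte markers were lower, as many matrix genes were. These sets are not separate, because collagen genes (Col1a1, Col1a2, Col3a1) were used as fibroblast markers. With vehicle Col1a1 stood at 1186 and 1035 CPM, Col1a2 at 1467 and 1249.7 CPM and Col3a1 at 378 and 329 CPM. Together they made up most of the fibroblast sum with vehicle. Of 15 fibroblast markers tested, 12 were called lower and 1 higher, with a median of -4.37 (-4.28 with each gene that had an empty group set to its bound). Their summed level was 3559.7 and 3109 CPM with vehicle and 511 and 459.6 CPM in treated cells, where Lum, Dpt and Tcf21 were at 0. Dcn, the fibroblast marker decorin, was not called, at 26.8 and 35.5 CPM with vehicle and 27.7 and 24.2 CPM in treated cells (edgeR adjusted p = 0.282). Pericyte and smooth muscle genes were called lower for 10 of 14 and higher for 1, and their sum went from 2552 and 2539 CPM to 1544 and 1443 CPM. Cspg4, the pericyte proteoglycan NG2, had no counts in treated cells and was at least 312-fold lower. Pdgfrb, the receptor that recruits pericytes, fell from 123 and 103 CPM to 2.1 and 2.61 CPM. Thy1, also expressed by activated endothelium, was the fibroblast marker called higher, at 99 and 90.7 CPM with vehicle and 409 and 375 CPM in treated cells. It made up most of the fibroblast sum in treated cells. Most of the pericyte and smooth muscle sum there was Tagln, at 719 and 659 CPM, and Mcam, the member called higher, at 599 and 574 CPM. The TEV libraries had sums of 345 and 400.4 CPM for fibroblast markers, with Thy1 at 286 and 333 CPM, and 1226 and 1403 CPM for pericyte markers. Whether cells of these types lay behind the lower matrix genes was not tested.

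Macrophage and leukocyte markers were low in every library. Their sum was 68 and 80.2 CPM with vehicle and 39.3 and 37.6 CPM in treated cells, with 8 of 14 called lower and 1 higher. The lower count was 4 without any 1 of the 4 libraries. Lyz2, the lysozyme gene of myeloid cells, which may share reads with its close copy Lyz1, fell from 24.4 and 29.1 CPM to 4.47 and 5.11 CPM, and Cd68, a lysosomal glycoprotein of macrophages and other cells, rose from 3.58 and 2.86 CPM to 9.07 and 8.87 CPM. Of 11 epithelial and mesothelial markers, 5 were lower and 1 higher. Epcam, Sftpc, Sftpb, Sftpa1, Scgb1a1 and Msln were at 0 in treated cells, and Epcam and Sftpa1 were at 0 with vehicle too. Of these only Msln was among the genes tested, and it stood at 2.39 and 1.64 CPM with vehicle. The mesothelial gene Upk3b fell from 14 and 13.4 CPM to 0.759 and 0.919 CPM, while the simple keratin gene Krt18 rose from 5.88 and 5.36 CPM to 44.4 and 39.7 CPM. The summed level of lymphatic endothelial markers was 3128 and 2981 CPM with vehicle and 3365 and 3198 CPM in treated cells. Of 9 genes in that list, 3 were called higher and 4 lower. Prox1, the lymphatic master factor, fell from 160.4 and 129.9 CPM to 72 and 78.4 CPM, and Pdpn, podoplanin, from 185 and 222 CPM to 48.1 and 49.6 CPM. Stab1, a scavenger receptor, rose from 1417 and 1282 CPM to 2003 and 1840.5 CPM, and Stab2, its relative, from 3.27 and 2.68 CPM to 13.3 and 14.2 CPM.

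**Figure D3:**
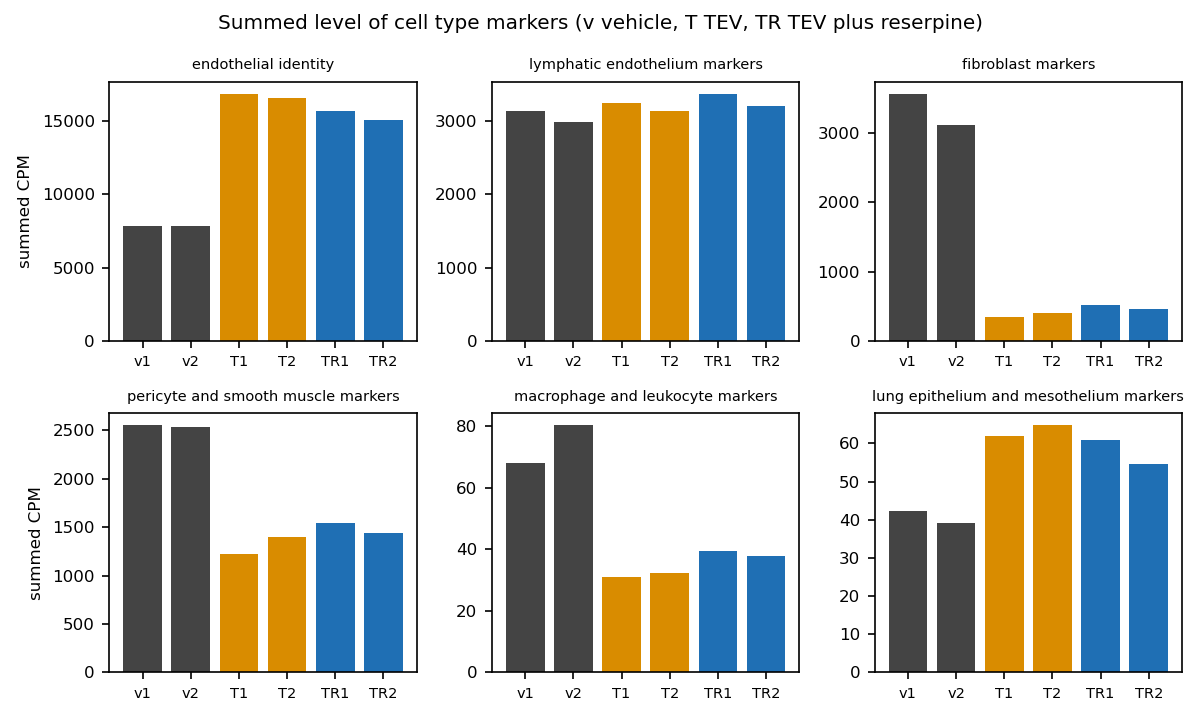
Summed CPM (y axis, linear, from 0) of 6 marker lists in each library (v vehicle, T TEV, TR TEV plus reserpine; one bar a library). Endothelial markers stand at 7866 and 7845 CPM with vehicle and 15682 and 15074 CPM with TEV plus reserpine, and fibroblast markers stand at 3559.7 and 3109 CPM and 511 and 459.6 CPM.

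Endothelial to mesenchymal transition was covered by 17 genes, of which 12 were called lower and 2 higher, with a median of -1.08. This list shares Acta2, Tagln, Cnn1, Postn and Fap with the marker lists above. Prrx1, a mesenchymal homeobox factor, stood at 229.7 and 209 CPM with vehicle and 1.07 and 1.32 CPM in treated cells (log2 change -7.49, SE 0.235, edgeR adjusted p = 7.04e-06). Twist1, a factor of the transition, fell from 14.6 and 14.2 CPM to 1.74 and 1.67 CPM, and Twist2 from 20.0 and 24.6 CPM to 0.67 and 0.689 CPM. Snai2, the factor Slug, fell from 41.5 and 29.3 CPM to 3.62 and 3.76 CPM, while Snai1 was not called, at 29.5 and 30.0 CPM and 26 and 21.2 CPM. Zeb1 and Hmga2 were not called either. Vim, the intermediate filament vimentin, rose from 4147 and 4005 CPM to 6267 and 5725 CPM, and the ligand Tgfb2 from 29.7 and 22 CPM to 56.9 and 56.7 CPM.

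TGF-beta and BMP pathway genes moved both ways. Of 29 tested, 14 were called higher and 10 lower, with a median of -0.13. Among ligands, Bmp4 rose from 35.6 and 32.8 CPM to 215 and 210.3 CPM (log2 change 2.64, edgeR adjusted p = 0.000145) and Bmp6 from 12.5 and 13.9 CPM to 54.5 and 48.2 CPM. Bmp2 fell from 29.7 and 37.3 CPM to 1.21 and 1.12 CPM (log2 change -4.85, edgeR adjusted p = 8.34e-05). Groups were apart for the 3 ligands. The inhibitory factor Smad6 and the BMP target Id2 changed by 1.44 and 1.17. Ltbp1, which holds latent TGF-beta in the matrix, fell from 287 and 240.4 CPM to 39.1 and 45.6 CPM, and Gdf15, a stress-induced cytokine, rose from 5.95 and 5.64 CPM to 33.1 and 27.2 CPM.

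In the Wnt pathway 13 of 26 genes were called lower and 4 higher, with a median of -1.09. The lower count was 8 without vehicle replicate 2 or without replicate 1 of the treated group. Dkk3, a secreted glycoprotein of the Dickkopf family, fell from 90.1 and 71.4 CPM to 0.0893 and 0.23 CPM. Dkk2, a Wnt antagonist, fell from 43.7 and 36.6 CPM to 2.68 and 2.84 CPM, and the receptor Fzd2 from 21.2 and 18.5 CPM to 1.7 and 0.976 CPM. In the other direction the receptor Fzd6 rose from 22.8 and 20.0 CPM to 67 and 71.1 CPM, and the co-receptor Lrp5 from 124 and 120.5 CPM to 245 and 223 CPM. The antagonist Sfrp1 rose by 1.58 on the log2 scale.

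Insulin-like growth factor genes were lower for 12 of 13, with a median of -1.39, and Igfbp3 was the 1 called higher. Igfbp5, a binding protein, stood at 164 and 151 CPM with vehicle and 12.8 and 14.5 CPM in treated cells (log2 change -3.53, SE 0.122, edgeR adjusted p = 1.04e-05). Igf1, the growth factor, fell from 17.5 and 16.9 CPM to 5.63 and 6.34 CPM, and Igf2r, which clears IGF2, from 717 and 614 CPM to 130.4 and 136 CPM. Irs1, the adaptor of the insulin and IGF1 receptors, fell from 34.3 and 29.8 CPM to 10.6 and 10.3 CPM. Igfbp3 stood at 266 and 292 CPM with vehicle, 49.2 and 82.2 CPM with TEV and 574 and 574 CPM in treated cells, and its call against vehicle ended without vehicle replicate 1 (edgeR adjusted p = 0.0528).

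Amino acid and integrated stress response genes were lower with few exceptions. Of 33 tested, 26 were called lower and 1 higher (2 without either TEV library), with a median of -1.0. Asns, asparagine synthetase, stood at 206 and 199 CPM with vehicle and 62.6 and 61.9 CPM in treated cells (log2 change -1.70, SE 0.078, edgeR adjusted p = 3.39e-05). Ddit3, the stress factor CHOP, fell from 72.5 and 70.5 CPM to 13.9 and 11 CPM. Atf5, a factor translated under stress, fell from 228 and 217 CPM to 48.8 and 47.5 CPM, and Aldh1l2, a mitochondrial folate enzyme, from 53.5 and 46.6 CPM to 5.72 and 5.89 CPM. Replicates were close and groups apart for all 4 genes. Atf4, the factor that drives these genes and is controlled largely by translation, was not called, at 263 and 275 CPM and 214 and 208 CPM (edgeR adjusted p = 0.0524). Atf3, a stress-induced repressor, was the member called higher, at 16.2 and 20.3 CPM and 39.4 and 36.1 CPM. With TEV alone Asns stood at 44.2 and 41.8 CPM and Ddit3 at 10.6 and 10.2 CPM.

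Of 21 genes of the unfolded protein response, 9 were called lower with changes of less than 2-fold, and the count fell to between 2 and 5 when any 1 of the 4 libraries was left out. Pdia4, a disulphide isomerase, stood at 351 and 383 CPM and 251 and 250.3 CPM, and Sel1l, an adaptor of protein export for degradation, at 246 and 227 CPM and 153 and 172 CPM. Calr, the chaperone calreticulin, was not called, at 1044 and 1059.9 CPM and 967 and 976 CPM. Lysosome genes were lower for 16 of 35, with a median of -0.27. Ctsb, cathepsin B, fell from 1499 and 1515 CPM to 801 and 777 CPM, and Npc1, which moves cholesterol out of lysosomes, from 125 and 128 CPM to 66 and 70.1 CPM. Ctsk, cathepsin K, fell from 40.8 and 38.2 CPM to 3.75 and 4.28 CPM, whereas Ctsd, cathepsin D, was not called, at 2045 and 2055 CPM and 1969 and 1812 CPM.

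Genes of endocytosis, by which cells take up vesicles, moved both ways. Of 31 tested, 9 were called higher and 7 lower. Caveolar and recycling genes were among the higher, with Cav1 at 1.91 on the log2 scale and the EH-domain ATPase genes Ehd3 and Ehd4 going from 56.3 and 62.4 CPM to 189.9 and 189.8 CPM and from 199 and 218 CPM to 517 and 537 CPM. Lrp1, a large scavenging receptor, stood at 1542 and 1378 CPM with vehicle and 39.1 and 20.2 CPM in treated cells (log2 change -5.64, SE 0.317, edgeR adjusted p = 6.60e-05). Dnm1, the dynamin most abundant in neurons, fell from 18.1 and 17.3 CPM to 0.67 and 0.431 CPM, and Itgav, the alpha V integrin that binds vesicles and matrix, from 374 and 344 CPM to 149 and 144 CPM. Rab7, the GTPase of late endosomes, was not called, at 367 and 379.8 CPM and 406 and 415 CPM.

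Respiratory chain genes of the nucleus and of mitochondria were called mostly in opposite directions. Of 29 nuclear genes, 18 were called higher and 1 lower, with a median of 0.31, and the higher count was 8 without vehicle replicate 1, 9 without vehicle replicate 2 and 11 without replicate 1 of the treated group. Cox6c, a subunit of cytochrome c oxidase with a near-identical pseudogene, stood at 80.7 and 87 CPM and 139 and 138 CPM, Cox4i1, another subunit, at 207 and 223 CPM and 348 and 307 CPM, and Uqcrfs1, the iron-sulphur protein of complex III, at 48.5 and 54.3 CPM and 78.1 and 73.3 CPM. These changes were under 2-fold. Of 12 transcripts encoded in mitochondria, 9 were called lower, with a median of -0.36. The count was 8 with near-identical copies summed, since mt-Co2, singled out after its values were seen, then changed by -0.15 (edgeR adjusted p = 0.127). mt-Nd1, a subunit of complex I, fell from 1847 and 1953 CPM to 1229 and 1466 CPM, and mt-Nd2 from 968 and 997 CPM to 611 and 725 CPM.

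mt-Co3, a subunit of cytochrome c oxidase, stood at 2372 and 2647 CPM with vehicle and 659 and 554 CPM in treated cells (log2 change -2.05, edgeR adjusted p = 0.000108). Gm28437, whose transcript is identical to that of mt-Co3 over 783 aligned bases, moved the other way, from 51.9 and 80.3 CPM to 1005 and 1288 CPM (log2 change 4.12). Reads of such copies cannot be told apart at 75 bases, so the split between them is uncertain. Summed, the pair stood at 2424 and 2727 CPM with vehicle and at 1664 and 1841 CPM in treated cells, a log2 change of -0.55 (edgeR adjusted p = 0.00302). The sum of mt-Atp6 and its copy Gm10925 changed by -0.62 against -0.92 for mt-Atp6 alone. Read alone, mt-Co3 had the largest change of the 12 mitochondrial transcripts, and with copies summed mt-Atp6 did. The split is as uncertain for Gm28438, a copy of mt-Nd3, and for Pgam1-ps2, a copy of Pgam1, which had no counts in treated cells and are not read here as decreases.

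**Figure D4:**
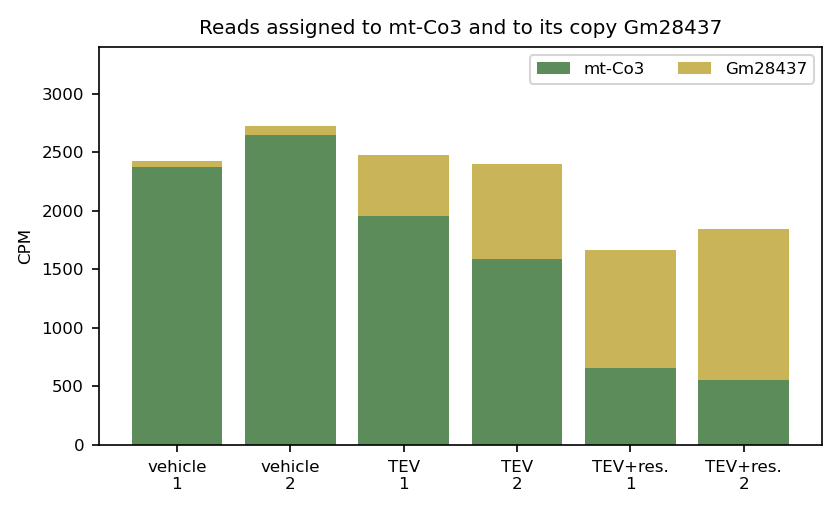
CPM (y axis, linear, from 0) assigned to mt-Co3 (green) and to its copy Gm28437 (yellow, stacked) in each of the 6 libraries (x axis). The stacked sum goes from 2424 and 2727 CPM with vehicle to 1664 and 1841 CPM with TEV plus reserpine, a smaller difference than that of the mt-Co3 part alone.

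Many heat shock and osmotic genes were lower than with TEV alone. Against vehicle 31.8% of heat shock genes and 41.7% of osmotic genes were called in either direction, beside 39.1% of all genes tested. Of 22 heat shock and chaperone genes, 4 were called higher and 3 lower than with vehicle, while 2 were called higher and 14 lower than with TEV. Against vehicle the higher count was 2 without either vehicle replicate or without replicate 1 of the treated group, and the lower count was 5 without either TEV library. Hspa8, the constitutive HSP70, rose from 2809 and 2826 CPM to 4237 and 4380.0 CPM, and Hspb8, a small heat shock protein, fell from 66.2 and 72.6 CPM to 28.3 and 26.9 CPM. Hspa8 has near-identical pseudogenes, and Hsp90aa1 near-identical copies, with which their reads may be shared. Fkbp4, a co-chaperone of steroid receptors, fell by 0.50 on the log2 scale. Hsp90aa1, the inducible HSP90, was not called, at 1017 and 1032 CPM and 1066 and 1169 CPM. Of 12 osmotic response genes, 2 were higher and 3 lower than with vehicle, and 10 were lower than with TEV. Akr1b3, aldose reductase, stood at 277 and 291 CPM with vehicle, 16449.5 and 12553 CPM with TEV and 478 and 430.0 CPM in treated cells (log2 change against vehicle 0.68, edgeR adjusted p = 0.00705), and its reads may be shared with pseudogenes. Sgk1, a kinase induced by salt and steroids, rose from 162 and 153 CPM to 377 and 405 CPM, with TEV at 924 and 841 CPM. Aqp1, a water channel, fell from 72.7 and 62.3 CPM to 13.5 and 13.8 CPM.

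Genes of glycolysis and the hypoxia response were lower for 12 of 30 and higher for 3 (1 without vehicle replicate 1 or without replicate 2 of the treated group), and against TEV 17 were lower and 3 higher. Slc16a3, the lactate exporter MCT4, fell from 45.2 and 52.1 CPM to 8.26 and 7.21 CPM, and Hk2, the inducible hexokinase, from 83.4 and 89.1 CPM to 39 and 46.6 CPM. Bnip3, a hypoxia target of mitophagy with a near-identical pseudogene, fell by 1.88, and Ero1l, the oxidase of protein folding, by 1.23 on the log2 scale. Hk1, the constitutive hexokinase, rose from 259 and 273 CPM to 392 and 378 CPM. Pkm, pyruvate kinase, was not called, at 2523 and 2577 CPM and 2500.5 and 2237 CPM, beside 4071 and 3807 CPM with TEV alone.

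Redox genes were higher for 15 of 32 (8 without vehicle replicate 1) and lower for 6, with a median of 0.20. Gsr, glutathione reductase, rose from 35.3 and 36.3 CPM to 76.7 and 71.1 CPM, and Nqo1, a quinone reductase, from 69.7 and 69.1 CPM to 132 and 130.4 CPM. Gpx1, the cytosolic glutathione peroxidase, rose from 131 and 151 CPM to 287 and 244 CPM. The genes called lower included Gsta4, Gsta3, Slc7a11 and Abcc4, with log2 changes of -2.32, -1.79, -0.84 and -0.49. Genes of secreted enzymes were lower too. Sod3, the extracellular superoxide dismutase, fell from 52.4 and 48.9 CPM to 2.9 and 2.93 CPM. Gpx3, the plasma glutathione peroxidase, fell from 89.9 and 89 CPM to 19.5 and 18.8 CPM. Sod3 and Gpx3 are expressed by many cell types, and the fibroblast and pericyte marker sums given above moved in the same direction, whose part was not tested.

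Sterol and lipid genes, the setting in which Ch25h acts, were called in both directions. For cholesterol synthesis genes and for LXR targets and oxysterol genes, the shares called were near those of all genes tested, 19.1% higher and 19.9% lower. Of 25 cholesterol synthesis genes, 5 were called higher (3 without vehicle replicate 1) and 4 lower (1 without vehicle replicate 1, 2 without either treated replicate). Idi1, an isomerase of the isoprenoid steps of the pathway, rose from 23.1 and 28.9 CPM to 40.7 and 44.6 CPM, and Cyp51, which demethylates lanosterol, fell from 61.6 and 57 CPM to 39.8 and 29.1 CPM, a call that ended without vehicle replicate 1 (edgeR adjusted p = 0.0509). Of 24 LXR targets and oxysterol genes, 5 were higher (2 without either vehicle replicate, 3 without either treated replicate) and 6 lower (3 without vehicle replicate 1 or replicate 2 of the treated group). Apoe, a carrier of cholesterol, rose from 13.3 and 10.8 CPM to 28.2 and 23.1 CPM, and Scd1, a stearoyl desaturase, fell from 102 and 93.7 CPM to 36.9 and 41.6 CPM. Abca1, the cholesterol exporter, was not called, at 198 and 174 CPM and 153 and 175 CPM, beside 44.3 and 67.6 CPM with TEV alone. Reads of Idi1 may be shared with its near-identical copy Gm13502, so its level is uncertain.

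Of 28 fatty acid genes, 9 were called higher (4 without vehicle replicate 2) and 4 lower. Fabp4, a lipid chaperone of capillary endothelium, rose from 100.05 and 109.9 CPM to 219 and 212 CPM, with TEV at 751 and 771 CPM. Pdk4, which restrains pyruvate oxidation, rose from 15.9 and 18.2 CPM to 31.8 and 38.7 CPM. Plin2, the coat of lipid droplets, fell from 227 and 255 CPM to 139 and 141 CPM.

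Genes of monoamine handling, the process that reserpine is known to act on, were called in both directions. Of 20 tested, 4 were called higher and 5 lower, close to the shares of all genes tested, 19.1% higher and 19.9% lower. The higher count was 1 without either vehicle replicate and 2 without replicate 1 of the treated group, and the lower count was 2 without vehicle replicate 1 or without either treated replicate. Slc18a2, the vesicular monoamine transporter VMAT2, stood at 3.55 and 3.45 CPM with vehicle and 1.83 and 1.89 CPM in treated cells (log2 change -0.91, edgeR adjusted p = 0.0203). That call ended without vehicle replicate 1 (edgeR adjusted p = 0.09) or 2 (0.0702), or without replicate 1 (0.077) or 2 (0.0664) of the treated group. Htr1b, a serotonin receptor, stood at 25.5 and 24.1 CPM with vehicle and 0.357 and 0.287 CPM in treated cells (log2 change -6.28, SE 0.21, edgeR adjusted p = 9.09e-06). Htr2a, another serotonin receptor, fell from 65.2 and 69.9 CPM to 24.7 and 30.2 CPM. Slc6a3, the dopamine transporter, rose from 2.42 and 2.33 CPM to 6.21 and 5.2 CPM. Maoa, which oxidises monoamines, was not called, at 43.1 and 47.4 CPM and 48 and 53.6 CPM. Of 19 xenobiotic response genes, 7 were higher and 5 lower than with vehicle, and 10 were higher than with TEV. Ahrr, the repressor of the aryl hydrocarbon receptor, rose from 11.4 and 9.54 CPM to 32.3 and 33 CPM, and Abcg2, a drug exporter, from 47 and 49.9 CPM to 115 and 127 CPM. Slco2a1, the prostaglandin transporter, rose from 31.3 and 29.2 CPM to 87.9 and 88.4 CPM.

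Some genes in treated cells stood apart from vehicle and from TEV alone in the same direction. Nrarp and Cx3cl1, described above, had 6.86 and 9.6 CPM and 13.5 and 18.6 CPM with TEV, close to or under their vehicle levels. Stab2, a scavenger receptor of hyaluronan, stood at 3.27 and 2.68 CPM with vehicle, 1.83 and 2.32 CPM with TEV and 13.3 and 14.2 CPM in treated cells, with log2 changes of 2.20 against vehicle and 2.72 against TEV (edgeR adjusted p = 0.000395 and 0.000671). Mycn, a factor of the MYC family, stood at 5.13 and 10.6 CPM, 1.5 and 3.5 CPM and 32.9 and 32.8 CPM in the same order (log2 changes 2.08 and 3.66). Ces2e, a carboxylesterase, stood at 3.02 and 2.58 CPM, 6.8 and 11.6 CPM and 36.3 and 31.1 CPM, and Gbp3, an interferon-induced GTPase, at 3.32 and 5.33 CPM, 11.7 and 5.42 CPM and 27.8 and 33.5 CPM. In these genes both treated libraries were above all 4 other libraries.

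In the other direction, Igfbp5 stood at 145 and 125 CPM with TEV and at 12.8 and 14.5 CPM in treated cells, with a log2 change of -3.30 against TEV beside -3.53 against vehicle (edgeR adjusted p = 7.26e-05 and 1.04e-05). Gpr149, an orphan receptor, stood at 48.8 and 55.9 CPM with vehicle, 127 and 74.8 CPM with TEV and 3.44 and 2.67 CPM in treated cells. Lgr6, a receptor of R-spondins, stood at 9.36 and 7.83 CPM, 23.6 and 13 CPM and 0.759 and 0.861 CPM in that order, and Snai2 at 41.5 and 29.3 CPM, 29.3 and 19.9 CPM and 3.62 and 3.76 CPM. Both treated libraries were under all 4 others for each. Both contrasts share the treated libraries, so they are not independent of each other.

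**Figure D5:**
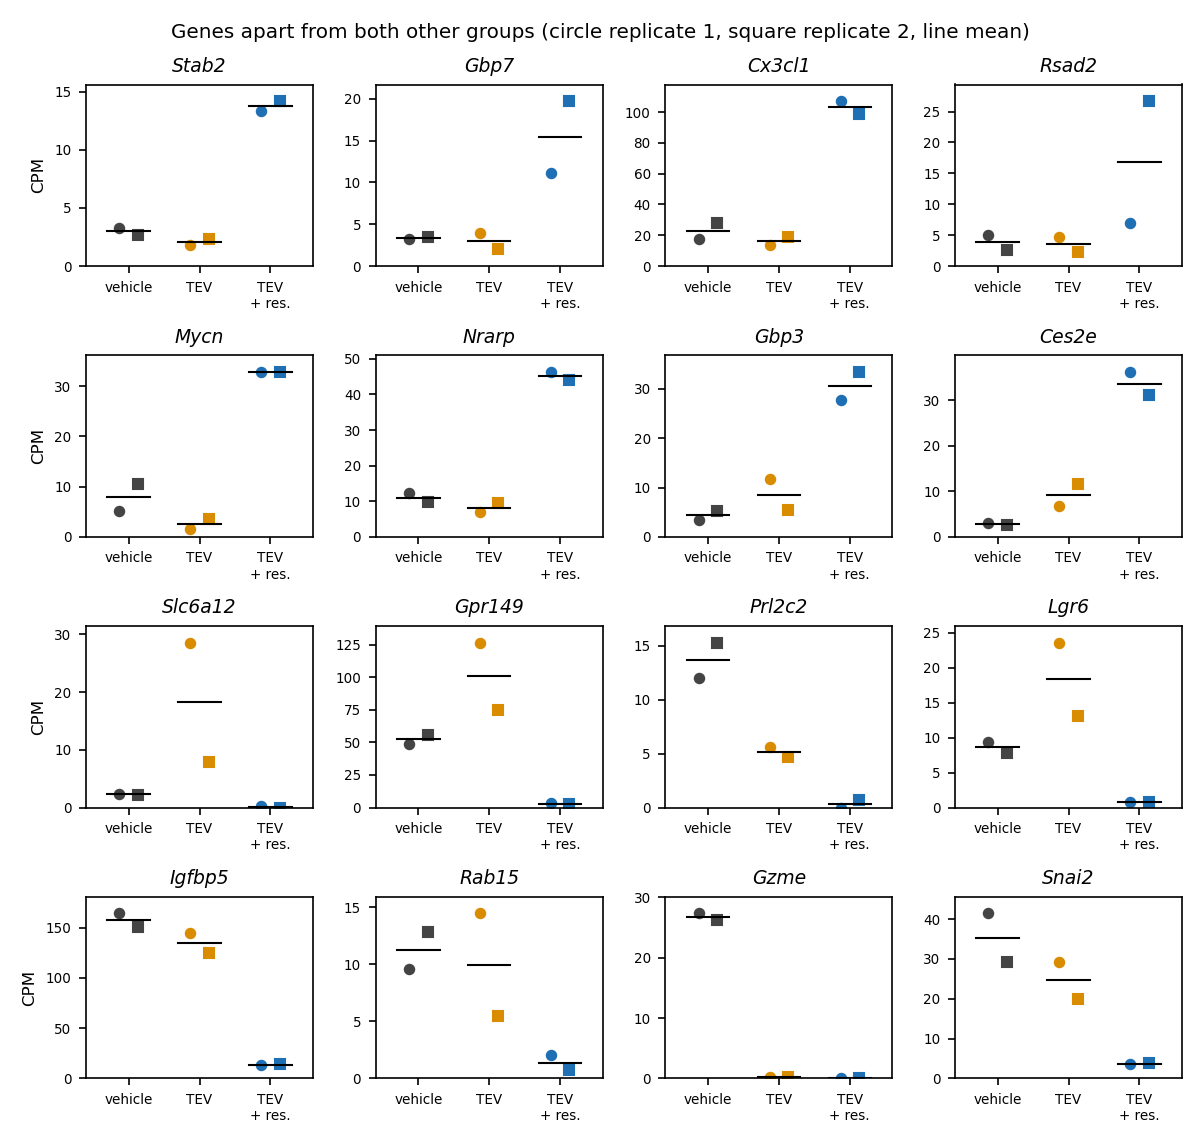
CPM (y axis, linear, from 0) in each library (circle replicate 1, square replicate 2, line mean) of the 8 genes most above and the 8 most below both other groups with TEV plus reserpine. In the upper 2 rows the treated points stand above the others, as for Stab2 at 13.3 and 14.2 CPM, and in the lower 2 rows they stand near 0 or under the others, as for Igfbp5 at 12.8 and 14.5 CPM. Gzme is near 0 with TEV as well, at 0.139 and 0.153 CPM.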

How the data were processed

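RNA-seq libraries were made from polyadenylated RNA (TruSeq) and sequenced as single 75-base reads, per the labels' protocols. The deposited values are estimated counts per gene symbol, made with kallisto 0.45.0 and R 4.0.0 per the submitters' processing notes, which also name edgeR, limma and the human build GRCh38 although the symbols are mouse. No gene coordinates of the files were used, and promoter coordinates are those of RefSeq on GRCm38.p6. Of the deposited estimated counts above 0, 100% were not whole, and they were rounded. The deposited filtered table of 13098 genes holds the same values as the full table of 30055, of which 8192 had no count. Strand was not given in the sources used here.

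All 6 libraries entered 1 edgeR 4.0.16 quasi-likelihood fit (R 4.3.3) of 3 group means, with filterByExpr, TMM scaling and Benjamini-Hochberg adjustment over 15035 genes. CPM are counts over the TMM-scaled library total. Alternatives were other scalings and filters, DESeq2 1.42.0, limma-voom (limma 3.58.1), thinning, a replicate block, leaving out each library, and summed copies, the last chosen after seeing the data. The test was run on simulated counts for 14662 genes, where 14 unchanged genes were called.

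The members and the 45 gene lists (997 genes, 945 tested) were chosen with earlier results of these data known. Named genes are Ch25h, the 12 largest changes each way among called genes of at least 5 CPM, the 10 most abundant each way changed at least 2-fold, the 8 each way farthest from both other groups, and per list those with the largest called changes and the most abundant uncalled. A few genes that the rule selects are not reported here. Exceptions are Cxcl1, Csf3, mt-Co2, Fn1, Gsta3, Slc7a11, Abcc4, the Y-linked genes and marker genes listed at 0. A gene with under 4 counts over a group has a bound against 3 counts or a ratio with a 95% counting interval. Replicate numbers did not pair samples: same-numbered deviations correlated at 0.0237 between vehicle and the treated group.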

Additional observations from a re-analysis of the deposited data

How the results depend on the processing

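None of the 18 alternatives changed the sign of a call of treated cells against vehicle. When 1 library was left out, genes called higher numbered 1800 to 2977 and lower 1772 to 2980, and at 2-fold or more 901 to 1024 and 1194 to 1577. A fit with a replicate block by title number called 2503 genes higher and 2591 lower (986 and 1487 at 2-fold or more), although the labels do not say that the numbers pair samples. Scaling by library size alone called 2554 higher and 3261 lower, so that 43.9% of calls were higher against 49.0% with TMM, and shifted the median log2 change of all genes to -0.07. With copies summed, mt-Nd3 changed by -0.37 (edgeR adjusted p = 0.170) where alone it was 0.38, since reads of Gm28438 are added. With 2 libraries a group, a lone library left in an arm is assumed to vary like the others, and 2-fold changes of genes with few reads can be missed.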

Other observations

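Clock genes of treated cells were called in both directions, 3 higher and 4 lower of 19, beside 19.1% and 19.9% of all genes tested. Nfil3, a repressor of clock output, fell from 32.5 and 35.6 CPM to 14.3 and 12 CPM, and Bhlhe41, a repressor of the clock loop, rose from 6.22 and 5.22 CPM to 16.5 and 17.9 CPM. Clock itself was not called, at 63.4 and 59.3 CPM and 65.5 and 76.9 CPM.

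Among 27 immediate early genes and their feedback regulators, 3 were called higher (5 without either TEV library) and 9 lower. Nr4a2, an orphan nuclear receptor, fell from 19.4 and 15.7 CPM to 2.28 and 2.76 CPM, while Fos rose from 5.13 and 4.56 CPM to 13 and 15.4 CPM. The feedback inhibitors of growth factor signalling Dusp4, Spry2 and Spred1 changed by -1.01, -0.88 and -0.95 on the log2 scale.

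Most autophagy genes were not called. Of 20, 3 were higher (1 without vehicle replicate 1 or without replicate 2 of the treated group) and 1 lower (2 without either TEV library or without replicate 2 of the treated group). Atg9b rose from 2.88 and 3.24 CPM to 12.2 and 13.2 CPM. Of 30 ribosomal protein genes, 6 were higher, beside 19.1% of all genes tested. The count was 1 without vehicle replicate 1 and 3 without either treated replicate. Rps27a rose from 431 and 461 CPM to 583 and 563 CPM, a call that ended without vehicle replicate 1 (edgeR adjusted p = 0.0699). Many ribosomal protein genes have near-identical pseudogenes, so their levels are uncertain.

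Markers of colon epithelium, from which the vesicles' tumour line derives, summed to 10.0 and 10.4 CPM with vehicle and 7.91 and 7.46 CPM in treated cells, with Cdx1, Cdx2, Epcam and Car1 at 0 in both groups. Of 6 tested, 1 was called lower, Cdh17, at 2.65 and 2.61 CPM and 0.402 and 0.258 CPM. Reln, a secreted glycoprotein of lymphatic endothelium, fell from 318 and 322 CPM to 50.3 and 47 CPM.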
